A study of Mus musculus with 11 samples.

Results

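Transcripts of 10 genes, the simple epithelial keratins Krt7, Krt8, Krt18 and Krt19 and the trophoblast or epithelial transcription factors Cdx2, Tfap2c, Elf3, Hand1, Gata2 and Gata3, were followed in mouse embryonic stem cells from which CTCF was removed and into which it was put back. The genes were chosen by symbol, and all 10 were found among the 55228 symbols of the count table. Of these, 9 had enough counts to be tested, and Gata3, with 1 to 13 counts per library, was too low to judge. CTCF binds DNA through zinc fingers and takes part in the folding of chromosomes. Every library came from the CTCF-AID line EN52.9.1, whose CTCF carries a degron, a tag that lets auxin trigger the destruction of the protein. EV cells without auxin (EV untreated, 3 libraries) were compared with EV cells in 500 µM of the auxin indole-3-acetic acid (EV auxin, 2 libraries). Auxin-treated cells that had received FL CTCF (FL, 3 libraries) or CTCF with the H373R substitution (H373R, 3 libraries) made up the other groups, and the titles of the latter read ZF4. The labels give neither the length of treatment nor what EV and FL abbreviate. Auxin on cells without the degron was not analysed here, and all libraries derive from 1 cell line.

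Keratins are filament proteins that assemble from a type II and a type I chain. Krt8 with Krt18 is the pair of the earliest embryonic epithelia, with Krt7 (type II) and Krt19 (type I) as partners in trophoblast and other simple epithelia. Trophoblast, the outer lineage of the blastocyst, depends on Cdx2, Gata3 and Tfap2c, while Hand1 acts in giant cell formation and Gata2 in placental hormone genes. Embryonic stem cells derive from the inner cell mass and normally keep Cdx2 low. Elf3 is an ETS factor of epithelia, and Tfap2c, which encodes AP-2 gamma, is also active in stem cells and germ cells.

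The total count per library ran from 13465241 in FL replicate 2 to 29902246 in EV untreated replicate 1. The 10 embryonic stem cell markers, among them Pou5f1, Sox2 and Nanog, were all detected. Levels are in CPM (counts scaled to the size of the library, with TMM factors). Their sum was 5894 to 6229 CPM in EV untreated, 5636 to 5835 in EV auxin, 5914 to 5952 in FL and 5634 to 5711 in H373R. By edgeR at an adjusted p under 0.05, 1 was higher and 4 lower in EV auxin than in EV untreated (11.3% and 9.40% of all tested genes). Against EV untreated it was 3 and 3 in FL (17.7% and 19.2%) and 1 and 6 in H373R (22.3% and 22.1%). EV untreated replicate 1 stood apart from its group. Its chi-square statistic per degree of freedom, where 1 would be counting noise alone, was 16.0 and 15.1 against the other libraries of its group, and every other pair of replicates had 1.96 to 5.06. Across 16215 genes, which are not independent replicates, its deviation from the group mean rose with GC content (r = 0.56). Calls on the members that changed without it are given with each gene. The labels do not say whether replicates were separate cultures, so a p-value measures only the spread between these libraries. In such bulk RNA, fewer cells of a type and less RNA per cell cannot be told apart.

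A promoter sequence was matched for 7 of the 10 genes in the RefSeq table (GRCm38.p6), and for Krt19, Tfap2c and Hand1 none was matched. The stretches shown are for the keratin pair, of which Krt18 was called after auxin and Krt8 was not, and for Elf3, which rose where Krt8 did. Each starts 250 bases before the annotated start and reads 5′ to 3′ on the gene's own strand. Those of Krt18 and Elf3 end before the annotated exons. That of Krt8 ends with its last marked motif, which runs into an annotated Krt8 exon. Capitals in Krt8 mark the motif AGATAA, bound by GATA factors, and a stretch that can form a G-quadruplex, defined as 4 runs of at least 3 G separated by 1 to 7 bases (3 overlapping matches). Capitals in Krt18 mark a match to the AP-2 motif GCCNNNGGC. The Krt8 stretch is chr15:102004473-102004592 (minus strand), that of Krt18 is chr15:102027966-102028179 (plus strand) and that of Elf3 is chr1:135258569-135258722 (minus strand).
Krt8: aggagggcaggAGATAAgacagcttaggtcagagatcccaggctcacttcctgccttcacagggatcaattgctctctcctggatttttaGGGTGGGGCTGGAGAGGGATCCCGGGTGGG
Krt18: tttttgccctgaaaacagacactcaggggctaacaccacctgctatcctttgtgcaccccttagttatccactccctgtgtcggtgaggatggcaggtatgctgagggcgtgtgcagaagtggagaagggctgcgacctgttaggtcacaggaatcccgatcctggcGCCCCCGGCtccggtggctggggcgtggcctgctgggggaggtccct
Elf3: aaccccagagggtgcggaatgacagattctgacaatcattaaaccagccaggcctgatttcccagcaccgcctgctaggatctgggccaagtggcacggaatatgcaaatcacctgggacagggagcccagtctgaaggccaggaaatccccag
Both strands were searched. Of 32851 promoters with 250 bases before the start, AGATAA was found in 9.99%, the G-quadruplex pattern in 16.7%, the AP-2 motif in 13.7%, the Sp/Klf box GGGCGG in 32.7% and TATAAA in 12.4%. None of these was found in the Elf3 window, which says only that these letters are not in it. Among the other matched genes, Cdx2 held 1 AP-2 match, Krt7 held 2 AP-2 matches and 4 of GGGCGG, and Gata2 held 1 GGGCGG in its first window and 1 AP-2 match and 2 of GGGCGG in its second. Gata3 held 3 AP-2 matches, 2 of GGGCGG and 6 overlapping or separate matches of the G-quadruplex pattern. Windows of these genes reach into annotated exons. All 250 bases of the second Gata2 window and of the Gata3 window were exonic, the latter in Gm13256. The Cdx2 match lies in the last 21 bases of its window, which are exonic. The Krt7 window enters annotated exons after its first 39 bases, and all its matches lie beyond these. A match is a description of the sequence, and binding was not measured here.

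Levels were compared between genes by the length-scaled abundance (TPM), which depends on the length taken for each gene. Elf3 was the most abundant, at a mean of 181 TPM over the 11 libraries, and lay above Krt19 in 11 of 11 libraries. Krt19 (112 TPM), Tfap2c (105 TPM) and Krt18 (91.9 TPM) followed and were not separated, since Krt19 exceeded Tfap2c in 8 libraries and Tfap2c exceeded Krt18 in 5. Krt8 came next at 38.2 TPM, below Krt18 and above Gata2 in all 11 libraries. Gata2 (6.06 TPM), Hand1 (4.99 TPM), Krt7 (3.76 TPM) and Cdx2 (1.88 TPM) were low, and Gata3 was lowest at 0.207 TPM. Gata2 exceeded Hand1 in 9 libraries, Hand1 exceeded Krt7 in 11 and Krt7 exceeded Cdx2 in 10. The place of Krt7 rests on its length, as its annotated exons span 7049 bases and those of Hand1 1997. Without length scaling Krt7 was above Hand1, at a mean of 7.09 against 2.67 CPM. Which transcripts were made was not tested. The cells thus held the RNA of Tfap2c and of the keratin pair at levels many times those of Cdx2 and Gata3.

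**Figure D1:**
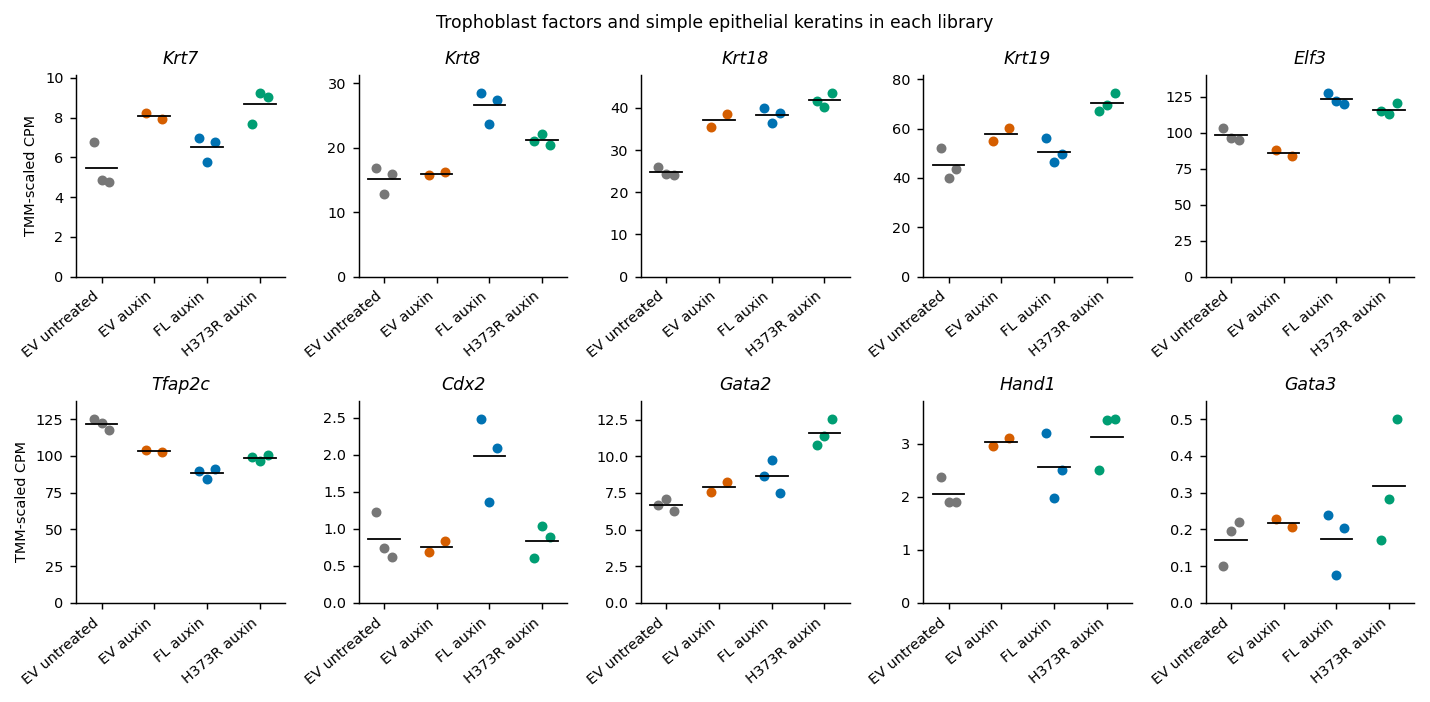
TMM-scaled CPM of each gene (one panel per gene) in every library, with points for libraries and a bar for the group mean, in the groups EV untreated (n = 3), EV auxin (n = 2), FL (n = 3) and H373R (n = 3). Krt18 is lowest in the EV untreated libraries, at 24.0 to 26.0 CPM, and Krt8 is highest in the FL libraries, at 23.8 to 28.5 CPM.

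The first question was what auxin alone did to the keratins and trophoblast factors in EV cells. Krt18, Krt7 and Krt19 rose, Tfap2c and Elf3 fell, and Krt8, Cdx2, Hand1 and Gata2 did not pass the test. Thus 5 of the 9 tested genes were called by edgeR's quasi-likelihood test at an adjusted p under 0.05, beside 20.7% of all 16420 tested genes. In the direction of a rise it was 3 of 9, beside 11.3%, and in the direction of a fall 2 of 9, beside 9.40%. The median log2 fold change of the 9 genes was 0.25, beside 0.0087 over all tested genes.

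When FL CTCF was present, Krt8, Elf3 and Cdx2 were higher than in EV auxin and Tfap2c was lower. These 4 of 9 compare with 24.5% of all tested genes called. The 3 rises stand beside a background of 11.1% and the 1 fall beside 13.4%. With H373R CTCF, Krt8, Elf3 and Gata2 were higher than in EV auxin, which is 3 of 9 beside 21.7% of all genes, and none fell, also at an unadjusted p under 0.05 by edgeR. The background for a rise alone was 10% and for a fall 11.7%, and the median log2 fold change was 0.05 for FL and 0.17 for H373R, beside -0.014 and 0.00031 over all genes. Both comparisons use the same 2 EV auxin libraries, so a library that happens to be low or high there moves both.

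Between H373R and FL, Krt19 and Gata2 were higher and Cdx2 and Krt8 lower in H373R. These 4 of 9 stand beside 5.96% of all tested genes, with 2 rises beside 3.14% and 2 falls beside 2.82%. This comparison has 3 libraries on each side and no EV library. Its median was 0.16, beside 0.0025 for all genes. The count of 4 changed with the setting. It was 7 with GC content and length trends removed, the added ones being Krt7 and Tfap2c (higher) and Elf3 (lower), and 6 with only the libraries compared or without EV untreated 1. It was 2 with limma on log2(TPM + 1) or log2(TPM + 0.1), 0 with limma and no TPM filter, 2 without FL 1, H373R 1 or H373R 2, and 1 without FL 3 or H373R 3. Against EV untreated, 6 of 9 differed in FL and 8 of 9 in H373R, beside 36.9% and 44.4% of all genes. In FL 5 were higher (17.7% of all genes) and 1 lower (19.2%), and in H373R 7 were higher (22.3%) and 1 lower (22.1%). Each of the 9 was called in at least 1 of the 6 comparisons, as were 59.4% of all tested genes. The share of members called was thus above the background in every comparison, but the genes were proposed with results of these libraries known, so the excess is a description.

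**Figure D2:**
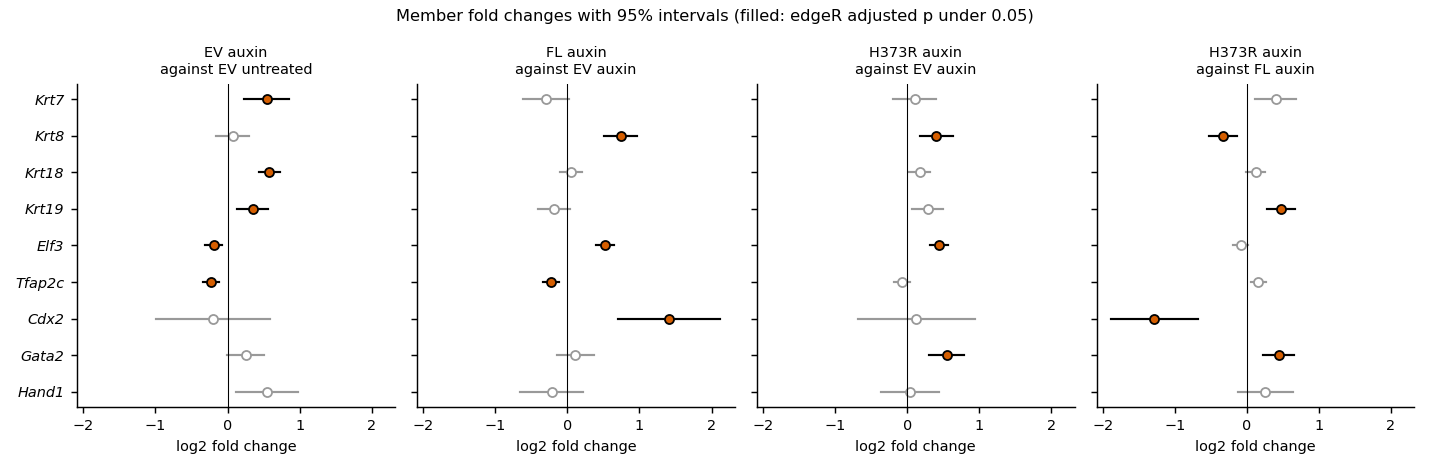
Log2 fold change of the 9 tested genes with 95% intervals from the edgeR model, in 4 comparisons (panels), where filled points passed an adjusted p of 0.05. Krt18 is filled in the panel of EV auxin against EV untreated (0.58), Krt8 and Elf3 stand right of 0 with either reintroduced CTCF, and Cdx2 moves in opposite directions in the panels of FL against EV auxin (1.41) and H373R against FL (-1.28).

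Krt8 and Krt18 lie 23697 bases apart on chromosome 15 (GRCm38, GENCODE M21), Krt8 at chr15:101996698-102004482 on the minus strand and Krt18 at chr15:102028180-102032027 on the plus strand. Krt8, the type II chain of the pair, had 16.8, 12.8 and 15.9 CPM in EV untreated, 15.7 and 16.3 CPM in EV auxin, 28.5, 23.8 and 27.4 CPM in FL and 21.1, 22.2 and 20.4 CPM in H373R. The EV groups overlapped, every FL library was above every H373R library, and every H373R library was above every EV library. Krt8 differed by a log2 fold change of 0.07 ± 0.11 (SE) between EV auxin and EV untreated (edgeR adjusted p = 0.709). It was higher than in EV auxin by 0.74 ± 0.11 with FL (edgeR adjusted p = 2.30e-04) and by 0.41 ± 0.11 with H373R (adjusted p = 0.0148). Relative to EV untreated it was higher by 0.81 ± 0.095 in FL (adjusted p = 1.29e-05) and by 0.48 ± 0.094 in H373R (adjusted p = 7.90e-04). Krt8 was lower in H373R than in FL by a log2 value of -0.33 ± 0.093 (adjusted p = 0.0462), close to the threshold. Leaving out any of 8 single libraries ended this last call, namely EV untreated 3, EV auxin 1 or 2, FL 1 or 3, or H373R 1, 2 or 3 (adjusted p = 0.0542 to 0.167), and so did the 3 limma settings on TPM (adjusted p = 0.199 to 0.295). Without EV auxin 1 or EV auxin 2 the H373R rise over EV auxin was also no longer called (adjusted p = 0.111 and 0.0875), nor was it by limma (adjusted p = 0.0820 to 0.127), while the FL rise was called under every alternative. Exons of Krt8 overlap the non-coding Gm36026 on the opposite strand, and it is not stated whether counting used strand.

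Krt18, the type I chain, had 26.0, 24.4 and 24.0 CPM in EV untreated, 35.5 and 38.6 CPM in EV auxin, 39.9, 36.4 and 38.8 CPM in FL and 41.8, 40.2 and 43.6 CPM in H373R. All 8 auxin-treated libraries lay above the 3 untreated ones. The rise from EV untreated to EV auxin was 0.58 ± 0.070 on the log2 scale (edgeR adjusted p = 2.57e-05) and was called under every alternative tried. Krt18 in FL differed from EV auxin by 0.05 ± 0.070 (adjusted p = 0.645) and in H373R by 0.17 ± 0.069 (adjusted p = 0.0868). The H373R difference passed the threshold without EV untreated 1 (adjusted p = 0.0261) and with only the libraries compared (adjusted p = 0.0192). Relative to EV untreated, Krt18 was higher by 0.63 ± 0.064 in FL (adjusted p = 3.48e-06) and by 0.76 ± 0.063 in H373R (adjusted p = 2.48e-07). Krt18 was thus called after auxin in EV cells and Krt8 was called where a CTCF construct was present. The difference between the responses of the 2 genes was not shown by a test.

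The other type II chain, Krt7 (chr15:101411043-101430313, plus strand), had 6.76, 4.85 and 4.77 CPM in EV untreated, 8.21 and 7.93 CPM in EV auxin, 6.97, 5.77 and 6.78 CPM in FL and 7.70, 9.24 and 9.04 CPM in H373R. EV auxin and H373R were above every EV untreated library, and FL lay between, overlapping EV untreated. Its log2 rise in EV auxin was 0.55 ± 0.15 (edgeR adjusted p = 0.0156). That call was lost without EV untreated 2, EV untreated 3, EV auxin 1 or EV auxin 2 (adjusted p = 0.0504 to 0.105), with only the libraries compared (0.0726) and with limma and no TPM filter (0.0520). FL against EV auxin was -0.29 ± 0.15 (adjusted p = 0.175), H373R against EV auxin 0.10 ± 0.14 (adjusted p = 0.647) and H373R against FL 0.40 ± 0.13 (adjusted p = 0.0956). Without EV untreated 1 the last of these was called (0.38, adjusted p = 0.0122), as it was with no count filter (0.0221), only the libraries compared (0.0206) and GC content and length trends removed (0.0434). Without EV untreated 1, FL against EV untreated was called as well (0.46, adjusted p = 0.00435, beside 0.25 and 0.173 with it). H373R exceeded EV untreated by 0.65 ± 0.13 (adjusted p = 7.86e-04). Krt7 shares exon sequence with the antisense gene Gm671.

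Krt19, a type I keratin that lacks the usual tail domain (chr11:100140810-100148665, minus strand), had 52.1, 40.04 and 43.5 CPM in EV untreated, 55.1 and 60.3 CPM in EV auxin, 56.2, 46.2 and 49.6 CPM in FL and 67.1, 69.6 and 74.5 CPM in H373R. H373R was above every other library, and FL overlapped both EV groups. Krt19 rose in EV auxin by 0.35 ± 0.10 on the log2 scale (edgeR adjusted p = 0.0210). Leaving out EV untreated 2, EV untreated 3, EV auxin 1 or EV auxin 2 ended this call (adjusted p = 0.0509 to 0.254), as did fitting only the libraries compared (adjusted p = 0.0854) and the 3 limma settings on TPM (adjusted p = 0.0723 to 0.108). The difference between H373R and FL, 0.47 ± 0.090 (adjusted p = 0.00505), held without any single library and was lost with limma and no TPM filter (adjusted p = 0.0645). FL against EV auxin was -0.18 ± 0.10 (adjusted p = 0.203) and H373R against EV auxin 0.28 ± 0.099 (adjusted p = 0.0530). Without EV untreated 1, EV untreated 2 or FL 1 the latter was called (adjusted p = 0.00137, 0.0260 and 0.0397). It was also called with DESeq2 (adjusted p = 0.0310), RLE scaling (0.0465), no count filter (0.00139), only the libraries compared (1.23e-04) and GC content and length trends removed (0.0215, at a log2 value of 0.16). Without EV untreated 1, FL against EV untreated was called too (0.28, adjusted p = 0.00173, beside 0.17 and 0.171 with it). With GC content and length trends removed, FL against EV auxin passed (-0.23, adjusted p = 0.00246).

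Since the filament needs 1 chain of each type, the ratio of type I to type II RNA was computed per library from TPM. Krt18 over Krt8 was 2.10, 2.61 and 2.06 in EV untreated, 3.07 and 3.24 in EV auxin, 1.91, 2.09 and 1.93 in FL and 2.69, 2.47 and 2.91 in H373R. The ratio was highest in EV auxin and lowest in FL, where it overlapped EV untreated but no H373R or EV auxin library. As means it was 2.26 ± 0.303 (SD, n = 3), 3.15 ± 0.117 (SD, n = 2), 1.97 ± 0.0975 (SD, n = 3) and 2.69 ± 0.223 (SD, n = 3) in the same order. The sum of Krt18 and Krt19 over the sum of Krt7 and Krt8 gave 4.92 ± 0.396 (SD, n = 3) in EV untreated, 6.10 ± 0.272 (SD, n = 2) in EV auxin, 3.73 ± 0.144 (SD, n = 3) in FL and 5.56 ± 0.430 (SD, n = 3) in H373R. Here FL lay below every library of the other groups. Two-sided exact permutation tests cannot go below p = 0.1 with 3 libraries against 3, or below 0.2 with 3 against 2. No ratio could thus pass 0.05, and these tests cannot decide whether the ratios differed. EV auxin against EV untreated had an exact p of 0.2 for both ratios, the smallest possible. H373R against FL gave the smallest possible exact p of 0.1 for both ratios, or 0.2 and 0.24 after Benjamini-Hochberg adjustment over the 6 comparisons of each. The ratio is one of RNA levels, and protein was not measured here.

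**Figure D3:**
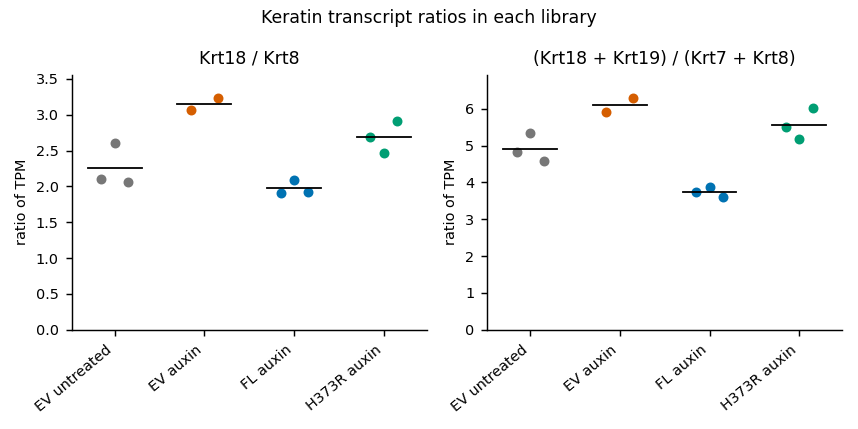
Ratio of TPM per library for Krt18 over Krt8 (left) and for type I over type II chains (right), with a bar at each group mean and both axes starting at 0. The FL libraries sit between 1.91 and 2.09 on the left and between 3.59 and 3.88 on the right, where they lie under all other libraries.

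Among the factors, Elf3 (chr1:135253575-135258568, minus strand) was, like Krt8, higher in both groups with a CTCF construct than in EV auxin. Elf3 had 103, 96.4 and 94.8 CPM in EV untreated, 88.0 and 83.6 CPM in EV auxin, 128, 122 and 120.3 CPM in FL and 115, 113 and 121 CPM in H373R. EV auxin was below every other library, and FL and H373R overlapped each other above both EV groups. The fall in EV auxin was -0.19 ± 0.057 on the log2 scale (edgeR adjusted p = 0.0252). It was no longer called without EV auxin 1 or EV auxin 2 (adjusted p = 0.0656 and 0.213), with only the libraries compared (adjusted p = 0.0878) or in the 3 limma settings on TPM (adjusted p = 0.0833 to 0.107). The rises over EV auxin, 0.53 ± 0.058 in FL (adjusted p = 1.95e-05) and 0.44 ± 0.058 in H373R (adjusted p = 1.62e-04), were called under every alternative. H373R against FL was -0.09 ± 0.051 (adjusted p = 0.358), and -0.16 (adjusted p = 0.0102) with GC content and length trends removed. Over EV untreated, Elf3 was higher by 0.33 ± 0.051 in FL (adjusted p = 1.47e-04) and by 0.24 ± 0.050 in H373R (adjusted p = 0.00111). With trends in GC content and length removed, the latter fell to 0.05 (adjusted p = 0.308). Elf3 exons overlap Gm26642.

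Tfap2c (chr2:172549593-172558622, plus strand) was, like Elf3, lower in EV auxin than in EV untreated. Unlike Elf3, it was also lower in FL and H373R than in EV untreated. It had 125, 122 and 118 CPM in EV untreated, 104 and 103 CPM in EV auxin, 90.04, 84.4 and 91.1 CPM in FL and 99.3, 96.7 and 100.4 CPM in H373R. The 4 groups did not overlap, with EV untreated highest, then EV auxin, H373R and FL. Tfap2c fell by 0.23 ± 0.053 on the log2 scale in EV auxin (edgeR adjusted p = 0.00500), a call lost without EV auxin 2 (adjusted p = 0.0601). FL was lower than EV auxin by a further -0.22 ± 0.053 (adjusted p = 0.00652), not called without EV auxin 1 or EV auxin 2 (adjusted p = 0.0613 and 0.0578). H373R against EV auxin was -0.07 ± 0.053 (adjusted p = 0.390). H373R against FL was 0.16 ± 0.048 (adjusted p = 0.0667) and passed without EV untreated 1 (adjusted p = 0.0243), with only the libraries compared (0.0359) and with GC content and length trends removed (0.0487). Relative to EV untreated, Tfap2c was lower in FL by -0.46 ± 0.047 (adjusted p = 4.18e-06) and in H373R by -0.30 ± 0.047 (adjusted p = 9.76e-05), under every alternative.

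Cdx2 (chr5:147300805-147307270, minus strand), the trophectoderm homeobox factor, was the lowest gene tested, with 12 to 52 counts per library. It had 1.23, 0.734 and 0.624 CPM in EV untreated, 0.684 and 0.830 CPM in EV auxin, 2.48, 1.37 and 2.09 CPM in FL and 0.602, 1.04 and 0.885 CPM in H373R. Each FL library was above each library of the other groups, which overlapped one another. In FL it exceeded EV auxin by a log2 value of 1.41 ± 0.33 (edgeR adjusted p = 0.00669) and EV untreated by 1.21 ± 0.27 (adjusted p = 0.00291). The first call was lost without EV auxin 1 or EV auxin 2 (adjusted p = 0.0593 and 0.0528), and the second held without any single library. H373R was lower than FL by -1.28 ± 0.28 (adjusted p = 0.0126), a call lost without FL 1, FL 3, H373R 1 or H373R 3 (adjusted p = 0.0503 to 0.0697). In the 3 limma settings on TPM it was not called either (adjusted p = 0.0637 to 0.102), with a log2 value of -0.80 at a pseudocount of 1. EV auxin against EV untreated was -0.20 ± 0.37 (adjusted p = 0.756) and H373R against EV auxin 0.13 ± 0.38 (adjusted p = 0.851). These wide errors do not show that the levels were equal.

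Gata2 (chr6:88193891-88207032, plus strand) had 6.66, 7.10 and 6.28 CPM in EV untreated, 7.58 and 8.22 CPM in EV auxin, 8.68, 9.72 and 7.50 CPM in FL and 10.8, 11.4 and 12.5 CPM in H373R. H373R was above all other libraries, and FL overlapped EV auxin. Gata2 in H373R exceeded EV auxin by 0.55 ± 0.11 on the log2 scale (edgeR adjusted p = 0.00343) and FL by 0.44 ± 0.10 (adjusted p = 0.0183). Without EV auxin 1 the first had an adjusted p of 0.05001, just over the threshold. Without FL 3, H373R 2 or H373R 3 the second was not called (adjusted p = 0.0559 to 0.116), nor with limma and no TPM filter (0.0544). The rise over EV untreated was 0.80 ± 0.10 in H373R (adjusted p = 1.36e-05). In FL it was 0.36 ± 0.11 (adjusted p = 0.0162), lost without EV untreated 3, FL 1 or FL 2 (adjusted p = 0.0547 to 0.0703), with limma and no TPM filter (0.0595) and with GC content and length trends removed (0.26, adjusted p = 0.0712). EV auxin against EV untreated was 0.25 ± 0.12 (adjusted p = 0.156).

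Hand1 (chr11:57828705-57832818, minus strand) had 2.36, 1.91 and 1.91 CPM in EV untreated, 2.97 and 3.11 CPM in EV auxin, 3.20, 1.97 and 2.50 CPM in FL and 2.50, 3.44 and 3.46 CPM in H373R. EV auxin was above EV untreated, and FL overlapped every group. The difference of 0.55 ± 0.20 on the log2 scale in EV auxin did not pass (edgeR adjusted p = 0.0667), and it did without EV untreated 1 (0.66, adjusted p = 0.0203) or with no count filter (adjusted p = 0.0337). Only H373R against EV untreated was called for Hand1 with all libraries (0.59 ± 0.18, adjusted p = 0.0125), and it was not without H373R 3 (adjusted p = 0.0725) or with limma and no TPM filter (adjusted p = 0.0688). Gata3 (chr2:9857078-9890034, minus strand) had 3, 4 and 6 counts in EV untreated, 4 and 5 in EV auxin, 5, 1 and 4 in FL and 4, 6 and 13 in H373R. At this depth no difference in Gata3 could be judged, and its exons overlap 9230102O04Rik and Gm13256.

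Other genes of trophoblast were taken from a list of 28, of which 20 were tested and 3 had no count. In EV auxin 7 were higher and 2 lower than in EV untreated, with a median of 0.21 beside 0.0087 over all genes. Dlx3, a placental homeobox gene, rose by 0.71 ± 0.082 (edgeR adjusted p = 1.69e-05), and the placental homeobox gene Rhox6 by 0.65 ± 0.12, while Ets2, an ETS factor of trophoblast stem cells, fell by 0.47 ± 0.069. With FL against EV auxin, 6 were higher and 3 lower, and with H373R against EV auxin likewise 6 and 3. Rhox6 was lower than in EV auxin in both, by -0.91 ± 0.13 and -0.65 ± 0.13, and Ets2 was higher in both, by 0.45 ± 0.071 and 0.43 ± 0.070. Between H373R and FL, 4 were higher, among them Wnt7b (0.61 ± 0.078) and Id2 (0.54 ± 0.078), and 4 lower, among them the protease gene Pcsk6 (-0.43 ± 0.052). In each of these 4 comparisons the list held genes called in both directions. Beside the 7 and 2 stand 11.3% and 9.40% of all tested genes, beside 6 and 3 in FL 11.1% and 13.4%, beside 6 and 3 in H373R 10% and 11.7%, and beside 4 and 4 they are 3.14% and 2.82%. Over the alternatives the number higher ran from 2 to 8, 2 to 6, 2 to 8 and 3 to 6 in the same order.

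Genes of epithelial junctions and surface were 31, of which 30 were tested. In EV auxin 11 were higher and 2 lower than in EV untreated, with the tight junction gene Cldn6 up by 0.54 ± 0.066, the desmosomal plaque gene Ppl up by 0.50 ± 0.089 and Perp, a desmosomal membrane protein, down by 0.55 ± 0.063. FL against EV auxin gave 4 higher and 9 lower, and H373R against EV auxin 10 higher and 2 lower. Of all tested genes, 11.3% and 9.40%, 11.1% and 13.4%, and 10% and 11.7% were higher and lower in these 3 comparisons. The 11 higher ran from 4 to 15 over the alternatives, the 9 lower from 6 to 12 and the 10 higher from 4 to 12. Between H373R and FL, 13 were higher and none lower, beside 3.14% and 2.82% of all tested genes, and the median was 0.20 beside 0.0025. Lgals3 (0.62 ± 0.09), the polarity gene Crb3 (0.58 ± 0.09) and the claudin Cldn4 (0.50 ± 0.075) were among them. Krt19 was also higher in H373R than in FL, and Krt8 was lower. The count of 13 higher ran from 7 to 14 over the alternatives, with at most 1 lower (1 also at an unadjusted p under 0.05 by edgeR), and was 7 without FL 3 and 8 without H373R 1 or H373R 2.

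Of 50 other keratin symbols, 5 had no count and 16 were tested. Krt42 (46.1 TPM) and Krt17 (19.2 TPM) led them, and together the other keratins summed to 74.2 to 115 TPM per library, beside 171 to 307 TPM for the 4 member keratins. The next was Krt222 at 3.91 TPM, so most of the tested ones, and the median over them, rest on low levels. In EV auxin, 4 rose and none fell, beside 11.3% and 9.40% of all tested genes, and over the alternatives 0 to 5 rose and 0 to 1 fell, the count of 0 being without EV auxin 2. They were Krt80 at 1.35 ± 0.28, Krt78 at 1.33 ± 0.39, Krt71 at 0.93 ± 0.25 and Krt79 at 0.75 ± 0.17. Their counts per library were low, at 10 to 47, 4 to 16, 5 to 27 and 22 to 112 in the same order. Those of Krt78 were little above the 1 to 13 of Gata3, which was too low to judge. With FL, 5 were lower than in EV auxin and none higher (13.4% and 11.1% of all genes; 2 to 9 lower over the alternatives), the median being -0.68 beside -0.014, and Krt79 was at -1.14 ± 0.19. None was called between H373R and EV auxin, where 5 were lower and 0 higher at an unadjusted p under 0.05 and the alternatives, DESeq2 included, called 0 to 3. Keratin genes resemble each other in sequence, and how reads that match more than 1 gene were counted is not stated. Krt79 alone differed between H373R and FL (0.94 ± 0.18). Krt79 lies near Krt8 on chromosome 15, but Krt8 was higher with FL.

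Paralogs of the factors were 15, of which 10 were tested. In EV auxin 5 rose and none fell, beside 11.3% and 9.40% of all tested genes and with 2 to 6 rising over the alternatives, among them Cdx1 (1.12 ± 0.11), Gata4 (0.66 ± 0.11) and Gata1 (0.62 ± 0.15). Cdx2 itself did not pass in that comparison. Gata6, a factor of primitive endoderm, was higher than in EV auxin by 2.00 ± 0.10 in FL and 1.26 ± 0.10 in H373R, and lower in H373R than in FL by -0.74 ± 0.07.

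**Figure D4:**
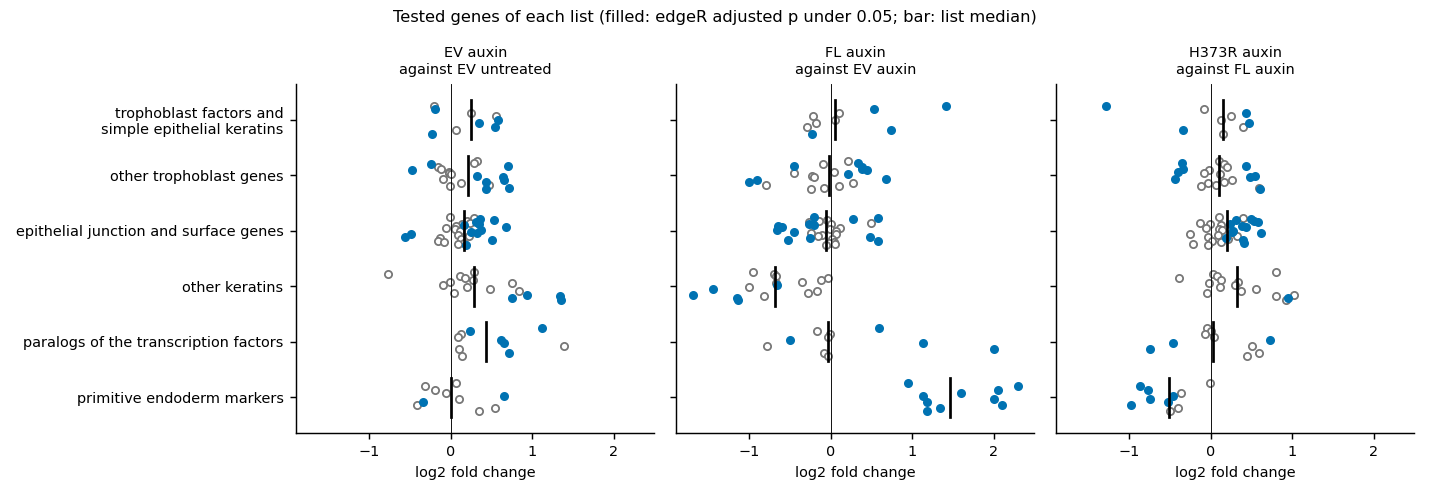
Log2 fold change of every tested gene (points) in the member genes, the 4 other lists and the primitive endoderm markers. Each comparison drawn has its own panel, with a bar at each median. The junction and surface genes of the panel of H373R against FL lie mostly above 0 (median 0.20), and the other keratins of the panel of FL against EV auxin lie mostly under it (median -0.68).

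Markers of another early lineage moved with the FL and H373R groups. All 10 primitive endoderm markers, which share Gata4 and Gata6 with the paralog list, were higher than in EV auxin in FL (median 1.46) and in H373R (median 1.03), and 6 of 10 were lower in H373R than in FL. Of all tested genes, 11.1% and 10% were higher in FL and H373R than in EV auxin, and 2.82% were lower in H373R than in FL. The summed level of these 10 markers was 160 to 165 CPM in EV untreated, 134 to 141 CPM in EV auxin, 382 to 387 CPM in FL and 236 to 275 CPM in H373R. None of them was at 0 in every library of a group. As background, primitive endoderm also makes Krt8 and Krt18. The order of this sum, FL above H373R above the EV groups, was also that of Krt8, whereas Krt18 and Tfap2c had other orders. In Elf3 the FL and H373R libraries overlapped, and in Cdx2 those of H373R overlapped the EV groups. Whether primitive endoderm cells were present, and any part of their RNA in the values of Krt8, Elf3 and Cdx2, was not tested. Mesoderm markers summed to 34.9 to 37.1 CPM in EV untreated, 46.9 to 48.7 in EV auxin, 59.4 to 65.2 in FL and 57.3 to 60.2 in H373R. The 7 fibroblast markers summed to 58.6 to 66.6 CPM in EV untreated, 56.0 to 61.1 in EV auxin, 77.0 to 91.9 in FL and 72.4 to 79.4 in H373R, with Lum at 0 in both EV groups and Postn at 0 in FL and H373R. Of 4 tested, 3 were higher in FL and 1 in H373R than in EV auxin, beside 11.1% and 10% of all tested genes. The 5 neuroectoderm markers summed to 14.4 to 16.0 CPM in EV untreated, 14.2 to 15.5 in EV auxin, 25.6 to 27.1 in FL and 20.001 to 22.0 in H373R, with Neurog2 at 0 in H373R. The neuroectoderm sum thus also had the order of Krt8, FL above H373R above the EV groups, without overlap, but its markers did not move together. Mean Sox1 was 10.9, 9.16, 22.8 and 16.1 CPM in EV untreated, EV auxin, FL and H373R, and mean Pax6 3.14, 3.77, 1.85 and 2.02 CPM. Of 3 tested, 1 was higher and 1 lower in FL than in EV auxin, beside 11.1% and 13.4% of all tested genes. In H373R against EV auxin it was also 1 and 1, beside 10% and 11.7%. The fibroblast and mesoderm sums were likewise higher in FL and H373R than in the EV groups, without overlap. Of 9 mesoderm markers tested, 4 were higher and 1 lower in FL than in EV auxin, and 2 and 1 in H373R, beside the same shares. Cdx1, shared with the paralog list, had means of 13.7, 20.7 and 20.1 CPM in EV auxin, FL and H373R. Mean Kdr was 3.28, 2.14 and 2.09 CPM. The part of the neuroectoderm, fibroblast and mesoderm sums in the members' values was not tested. The 7 germ cell markers summed to 185 to 197 CPM in EV untreated and 202 to 204 in EV auxin. Their sum was 185 to 187 CPM in FL and 201 to 203 in H373R. In EV auxin 1 was higher and 2 lower than in EV untreated, beside 11.3% and 9.40% of all tested genes. In FL 1 was higher and 3 lower than in EV untreated, beside 17.7% and 19.2%. The germ cell sum thus differed between groups, and its markers did not move together. Its part in the values of Tfap2c was not tested.

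For each called gene the tested genes with the most similar profile were found by the root mean square difference of log2 CPM, each profile centred on its own mean, over the 11 libraries. Krt18 was nearest to Nefl (0.048) and Srxn1 (0.057), where its own spread was 0.306, and Krt19 to Cldn7 (0.067) and Relb (0.069). Krt7 was nearest to Hpn (0.079) and Relb (0.093), and Krt8 to Zyx (0.065) and Htra1 (0.098). Elf3 was nearest to Smagp (0.049) and Bcat2 (0.057), Tfap2c to Dennd1a (0.045) and Plac8 (0.056), and Gata2 to Rasd1 (0.10) and Chst12 (0.11). Hand1 was nearest to Col6a2 (0.088) and Dusp28 (0.11), and Cdx2 to Dkk1 (0.27) and Gm23935 (0.29), a looser match. Within the 9 genes, Krt7 and Krt19 were nearest to each other (0.11), and Krt8 and Elf3 to each other (0.21). Krt18 was nearer to Krt19 (0.19) than to Krt8. For Elf3 and Tfap2c the gap to the nearest member exceeded the gene's own spread (0.21 against 0.200 for Elf3, and 0.34 against 0.176 for Tfap2c, whose nearest was Elf3).

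Genes within 200 kb of Krt8 were also read, in a window chosen after the data were seen. Of 12 tested neighbours, 6 were higher and none lower in EV auxin than in EV untreated, beside 11.3% of all genes higher. They were Krt18, Krt79, Krt78, the growth factor binding protein gene Igfbp6 (1.27 ± 0.28), the sterol acyltransferase gene Soat2 (0.54 ± 0.15) and Spryd3 (0.32 ± 0.079). Krt8 lay among them with a log2 difference of 0.07. In FL against EV auxin, 1 of the 12 was higher and 2 lower, beside 11.1% and 13.4% of all genes. At Elf3, 5 of 13 neighbours were higher and 2 lower in EV auxin, and at Gata2 none of 4 was higher and 1 lower, beside 11.3% and 9.40% of all genes.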

How the data were processed

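Raw counts and TPM per gene symbol, both as the authors deposited them, were read for 11 libraries. Column-purified RNA went into a directional library kit, per the labels' protocols. The submitters' processing notes name featureCounts, Subread 2.0.3, DESeq2 and the builds mm10 and GRCm38. The aligner, the annotation and whether strand was used in counting are not given in the sources used here. The test on the deposited counts was edgeR's (version 4.0.16, R 4.3.3; TMM, filterByExpr by group, 16420 of 55228 symbols kept, quasi-likelihood F test, Benjamini-Hochberg over all kept genes, threshold 0.05). All 11 libraries entered each fit, so that 2 EV auxin libraries shared the spread of the rest. The alternatives, with limma 3.58.1 and DESeq2 1.42.0, are described in the closing section. The GENCODE M21 annotation (GRCm38) gave coordinates, GC content and length. Promoters are from RefSeq. Scripts were tested on simulated data. SD is over libraries, SE is that of the model. Columns of other samples numbered 0. The genes named are all 10 members, up to 3 genes per list with the smallest adjusted p in EV auxin against EV untreated and in H373R against FL, and 2 genes of most similar profile per member. Other names were chosen after their values were seen. Members and lists were chosen with earlier results of these data known. Counts without molecular identifiers are not independent molecules, so counting error alone is covered by their depth. Ratios were compared by exact permutation tests in SciPy 1.17.1.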

Additional observations from a re-analysis of the deposited data

How the results depend on the processing

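Other settings were DESeq2, scaling by RLE or upper quartile, limma on log2(TPM + 1) with and without a TPM filter or on log2(TPM + 0.1), no count filter or a minimum of 10 in all libraries, a fit of only the libraries compared, a replicate block, removal of GC content and length trends, an adjusted p under 0.01 and leaving out each library. Of the members' values under these, 1131 kept direction and side of the threshold, 71 lost a call, 23 gained one and 16 changed sign, all of the last uncalled. The number of members called in EV auxin against EV untreated was 5, and became 2 with only the libraries compared, 3 with limma at either pseudocount, 2 without a TPM filter, 2 at an adjusted p under 0.01, and 1 to 6 without single libraries. FL against EV auxin (4) gave 2 to 4 without single libraries. H373R against EV auxin (3) gave 5 with only the libraries compared and 1 to 5 without single libraries. H373R against FL (4) gave 2 and 2 with limma, 0 without a TPM filter (where 586 genes were still called), 7 with GC and length removed, 1 at 0.01, and 1 to 6 without single libraries. FL and H373R against EV untreated (6 and 8) gave 5 to 8 and 7 to 8. The cause of these shifts was not tested.

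Log2 values that changed sign were, for EV auxin against EV untreated, Krt8 (-0.018 with GC and length removed, -0.036 to 0.13 without single libraries, the former without EV untreated 2) and Cdx2 (-0.41 to 0.18, the latter without EV untreated 1). For FL against EV auxin it was Krt18 (-0.015 in each limma setting, -0.0070 to 0.13 without single libraries, the former without EV auxin 1). For H373R against EV auxin they were Hand1 (-0.0055 with limma at a pseudocount of 1 with or without the filter, -0.0084 at 0.1, -0.073 with GC and length removed, -0.011 and -0.040 without H373R 2 and 3) and Cdx2 (-0.020 to 0.32, the former without H373R 2). For H373R against EV untreated it was Cdx2 (-0.29 to 0.31 without single libraries, positive without EV untreated 1, and 0.098 without H373R 1).

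Over all genes, EV auxin against EV untreated had 3392 calls, with 2016 for only the libraries compared, 1939 at 0.01, and 1569 to 5444 without single libraries. FL against EV auxin had 4016, with 2169 at 0.01 and as few as 1879. H373R against EV auxin had 3570, with 5909 for only the libraries compared, 2234 with limma and no filter, 1843 at 0.01 and 1502 to 5397 without single libraries. H373R against FL had 979, with 1815, 586, 2180 (GC and length removed), 436 at 0.01 and 510 to 2323. FL against EV untreated had 6052, and 3980 at 0.01. The share of calls that were higher moved from 45.2% to 26.6% with limma on log2(TPM + 1) in FL against EV auxin, from 46.1% to 32.7% in H373R against EV auxin, and from 52.7% to 65.6% in H373R against FL. Depth limits Cdx2, Hand1 and Gata3. Deviations from the group mean correlated at -0.087 to 0.28 over 15 pairs of libraries with the same replicate number, 3 of them over 0.1. These values do not settle whether the numbers pair libraries. With the replicate number as a block the members called stayed at 5, 4, 3, 4, 6 and 8, with 3197, 3978, 3532, 942, 6142 and 7436 calls over all genes.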
